A study of Homo sapiens with 6 samples.

Results

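The 6 proteins of the human ATG8 family and 4 receptors that bind them were followed in MEC-1, an established cell line from the B cells of a chronic lymphocytic leukemia, after knockdown of UGT2B17. The genes were GABARAP, GABARAPL1, GABARAPL2, MAP1LC3A, MAP1LC3B, MAP1LC3C, SQSTM1, NBR1, OPTN and CALCOCO2, chosen as a family by symbol, and each was read on the probe set that names no other gene. All 10 had such a probe set, 1 each, among 18404 genes measured. The family was put together when the large difference of GABARAPL1 between the groups was already known. The differences of the members are therefore given as a description with their error and support nothing. Their p-values are not printed, and only which members passed the threshold is given.

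Of 6 arrays, 3 came from cells that received a lentiviral short hairpin RNA (shRNA) targeting UGT2B17, which couples steroids and other small molecules to glucuronic acid, and 3 from cells that received a scrambled shRNA. Both groups were the same line, grown in RPMI with 10% FCS and without phenol red or antibiotics, and the labels give no time after transduction. The labels name neither the number of hairpins nor separate cultures, and the spread between arrays, which the p-values rest on, may be technical. In total RNA from a whole culture, fewer cells with a transcript and less of it per cell cannot be told apart.

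Macroautophagy encloses cytoplasm in a membrane that closes to an autophagosome and fuses with the lysosome. ATG8 proteins resemble ubiquitin in fold, are cleaved by ATG4 proteases at a glycine near the C-terminus and are then joined to phosphatidylethanolamine in that membrane. They fall into a GABARAP branch and an LC3 branch. Receptors such as SQSTM1, also called p62, bind ubiquitin or another mark on the cargo and an ATG8 protein through a short LC3-interacting motif, and are degraded with the cargo. The amount of lipid-bound ATG8 and the rate of degradation are set after transcription, and only RNA was measured here.

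GABARAPL1 was the member with the large difference, and the RefSeq sequence before its start site (assembly GRCh38.p14) is shown. Beside it are those of GABARAP, its relative with little difference, and of CALCOCO2, a receptor whose groups did not overlap. The groups did not overlap for 24.8% of all genes. Each run holds the 250 bases before the annotated start, 5′ to 3′ on the gene's strand, and capitals mark the matches to the motifs named in the next paragraph. GABARAPL1 is at chr12:10212627-10212876 on the plus strand, GABARAP at chr17:7242450-7242699 on the minus strand and CALCOCO2 at chr17:48830785-48831034 on the plus strand.
GABARAPL1: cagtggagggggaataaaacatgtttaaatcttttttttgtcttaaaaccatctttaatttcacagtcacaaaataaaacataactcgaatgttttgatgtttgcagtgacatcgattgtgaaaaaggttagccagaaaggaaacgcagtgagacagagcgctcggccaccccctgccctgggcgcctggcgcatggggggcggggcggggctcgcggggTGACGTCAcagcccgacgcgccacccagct
GABARAP: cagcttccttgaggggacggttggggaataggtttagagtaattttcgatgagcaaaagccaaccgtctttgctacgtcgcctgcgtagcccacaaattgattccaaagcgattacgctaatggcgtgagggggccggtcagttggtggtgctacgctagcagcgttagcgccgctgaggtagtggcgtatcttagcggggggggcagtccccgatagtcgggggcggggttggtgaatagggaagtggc
CALCOCO2: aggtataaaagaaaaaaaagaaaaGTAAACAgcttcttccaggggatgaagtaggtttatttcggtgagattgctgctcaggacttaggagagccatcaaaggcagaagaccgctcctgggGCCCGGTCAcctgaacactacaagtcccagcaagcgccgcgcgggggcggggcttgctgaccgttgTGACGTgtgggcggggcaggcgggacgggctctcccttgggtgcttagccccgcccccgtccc

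The motifs were picked after these sequences had been seen, and both strands were searched in 13 windows of 9 members. No RefSeq window was found in the table for MAP1LC3A. The palindromic cyclic AMP response element TGACGTCA was found for 1 member, GABARAPL1, from 30 to 23 bases before the start, and for 2.03% of 27305 genes, where a gene counts if any of its windows holds the motif. Its core TGACGT, which the palindrome holds on both strands, was found for 2 members, GABARAPL1 and CALCOCO2, and for 8.62% of genes. In CALCOCO2 the core lay from 63 to 58 bases before the start. CALCOCO2 also held a match to GTAAACA, bound by FOXO factors (1 member, 3.66% of genes), and to the antioxidant response element TGACNNNGC on the minus strand (13.2% of genes). The other member with that element was MAP1LC3B, and MAP1LC3C held the amino acid response element TGATGNAA (3.89% of genes) on the minus strand. The E-box CACGTG (7.73% of genes) was found for 0 of the 9 members. A match is a run of letters in a window and no measured binding site. GABARAP, GABARAPL2, SQSTM1, NBR1 and OPTN held none of the 6 motifs in their windows. Of these, GABARAPL2, SQSTM1 and NBR1 had groups that did not overlap, as CALCOCO2 did and as 24.8% of all genes did. Whether any motif had a part in the differences was not tested.

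Arrays correlated with each other at r from 0.992 to 0.998 over all genes. Scrambled replicate 3 stood furthest from its group: its values deviated from the group mean by 0.138 log2 units (root mean square over genes), those of the other arrays by 0.0771 to 0.112. UGT2B17 was lower in the knockdown on the probe set that names no other gene, which read 3.95, 3.69 and 3.91 log2 units on scrambled arrays 1 to 3 and 3.19, 3.27 and 3.17 on knockdown arrays 1 to 3. The difference was −0.64 ± 0.08 log2 units (SE, n = 3 each; limma, adjusted p = 0.00654). The signal lay near the low end of the arrays, whose lowest value was 2.2, and no detection calls were used, so the difference may understate the fall. How much of the signal came from background or from other transcripts was not tested. The B cell markers MS4A1, CD22, PAX5, CD79A, CD79B and BLK had mean levels from 9.60 to 12.3 log2 units, and 0 of 6 measured passed. Of the markers of T and NK cells (9 measured), monocytes and granulocytes (8) and erythroid cells and platelets (4), 0 passed. The largest difference on these lists was that of KLRF1, an NK cell receptor, at −0.66 ± 0.22 log2 units (SE). Its groups overlapped, and the median of the T and NK list was 0.05. A marker that did not pass is not shown to be unchanged. Of 8 epithelial and fibroblast markers KRT18, a keratin, rose by 0.32 ± 0.07 log2 units (SE; limma, adjusted p = 0.0494). KRT8, another keratin, read 0.19 ± 0.07 and EPCAM, an epithelial adhesion protein, −0.36 ± 0.12, and neither passed. The median of that list was −0.007, and its part in the results was not tested.

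In the GABARAP branch, GABARAPL1 was 2.12-fold higher in the knockdown, while GABARAP and GABARAPL2 differed little. GABARAPL1 encodes a GABA(A) receptor-associated protein-like ATG8 that acts late in autophagosome formation and in cargo binding. Its probe set read 7.37, 7.07 and 6.97 log2 units on scrambled arrays 1 to 3 and 8.28, 8.25 and 8.12 on knockdown arrays 1 to 3. All knockdown arrays were above all scrambled arrays, with a gap wider than the range of either group. The group means were 7.14 ± 0.21 and 8.22 ± 0.09 (SD, n = 3 each), and the difference was 1.08 ± 0.11 log2 units (SE), with a 95% interval from 0.84 to 1.32. With scrambled replicate 3 left out it was 0.998, the lowest of 16 alternatives, and with scrambled replicate 1 left out 1.20, the highest.

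GABARAP, the founding member of the branch, read 10.96, 10.84 and 10.77 log2 units with scrambled shRNA and 10.93, 10.83 and 10.89 with the knockdown. The groups overlapped, and the difference was 0.03 ± 0.07 (SE; 95% interval −0.13 to 0.19). It was −0.01 without scrambled replicate 3. GABARAPL2, also known as GATE-16 and first described in transport through the Golgi, read 11.07, 10.96 and 11 against 11.09, 11.09 and 11.12. The knockdown arrays lay just above, and the difference was 0.09 ± 0.06 (95% interval −0.05 to 0.23). Both intervals end well below the lower bound of GABARAPL1.

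GABARAPL3, a transcribed pseudogene close in sequence to GABARAPL1, has a probe set of its own that may share signal with GABARAPL1. It read 4.58, 4.40 and 4.73 log2 units with scrambled shRNA and 4.91, 4.84 and 4.83 with the knockdown. The groups did not overlap, and the difference was 0.29 ± 0.09 (SE; 95% interval 0.07 to 0.51, in the fit over all deposited probe sets), a smaller difference than on the GABARAPL1 probe set. How much of either signal comes from the other transcript was not tested.

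**Figure D1:**
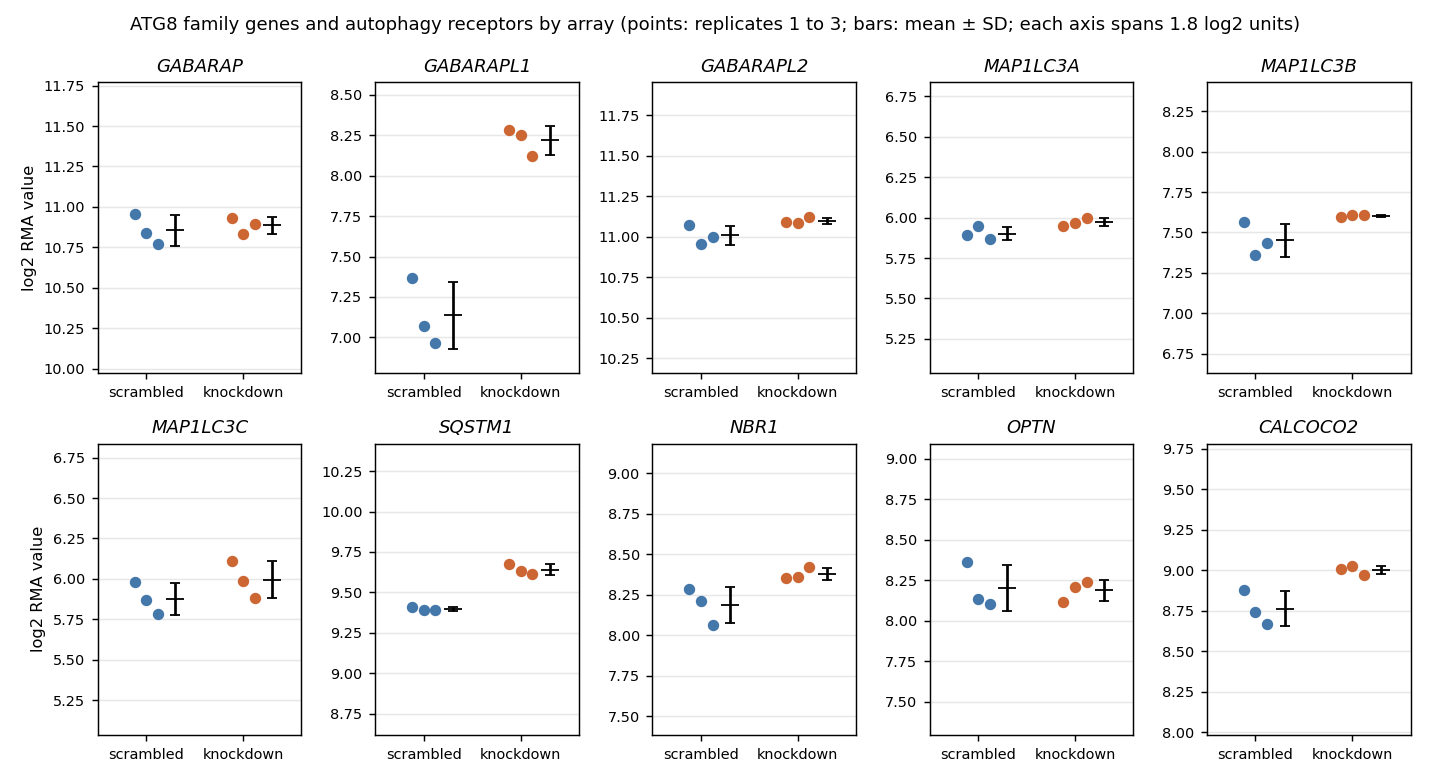
Level of each of the 10 genes on each array (log2 RMA value), with scrambled arrays in blue and knockdown arrays in orange, replicates 1 to 3 from left to right; black bars give the mean ± SD, and every panel spans the same number of log2 units. The 3 knockdown arrays of GABARAPL1, from 8.12 to 8.28, stand apart from its scrambled arrays, from 6.97 to 7.37, while the other genes move little.

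The LC3 branch showed small differences. MAP1LC3B, whose protein LC3B is the usual marker of autophagosomes, read 7.56, 7.36 and 7.43 log2 units with scrambled shRNA and 7.60, 7.61 and 7.60 with the knockdown. The knockdown arrays lay within 0.02 of each other, above all scrambled arrays. The difference was 0.15 ± 0.07 (SE; 95% interval −0.01 to 0.31). A brighter reading came from a probe set annotated to both MAP1LC3B and MAP1LC3B2, a near-identical copy. It read 9.48, 9.37 and 9.30 with scrambled shRNA and 9.65, 9.66 and 9.63 with the knockdown. The difference there was 0.26 ± 0.07 (95% interval 0.10 to 0.43, in the fit over all deposited probe sets), and the source of that signal among the 2 genes cannot be told apart.

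MAP1LC3A, which encodes LC3A, read 5.89, 5.95 and 5.87 log2 units with scrambled shRNA and 5.95, 5.96 and 6.0 with the knockdown. The lowest knockdown array and scrambled replicate 2 were equal to the second decimal, and the difference was 0.07 ± 0.06 (SE; 95% interval −0.07 to 0.21). MAP1LC3C, whose protein LC3C binds the receptor CALCOCO2, read 5.98, 5.87 and 5.78 against 6.11, 5.99 and 5.88. These groups overlapped, and the difference was 0.12 ± 0.08 (95% interval −0.07 to 0.30). Knockdown replicate 1 was the highest array for MAP1LC3C, and without it the difference was 0.06; without scrambled replicate 3 it was 0.07.

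Of the receptors, SQSTM1, CALCOCO2 and NBR1 were higher on every knockdown array than on any scrambled array, by far less than GABARAPL1, and OPTN was not. Over all genes 11.8% lay above in this way, and the receptors were chosen with this contrast known. SQSTM1 gathers ubiquitinated proteins into condensates and also binds KEAP1, the inhibitor of the antioxidant factor NRF2. It read 9.41, 9.39 and 9.39 log2 units with scrambled shRNA and 9.68, 9.63 and 9.61 with the knockdown. The replicates were tight in both groups, with SDs of 0.01 and 0.03, and the difference was 0.24 ± 0.06 (SE; 95% interval 0.11 to 0.38), or 1.18-fold. Over 16 alternatives it stayed between 0.22 and 0.26.

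CALCOCO2, also called NDP52, recognises ubiquitin and galectin-8 on damaged vesicles and bacteria. It read 8.88, 8.75 and 8.67 log2 units with scrambled shRNA and 9.01, 9.03 and 8.97 with the knockdown. The scrambled arrays spread more than the knockdown arrays, and the difference was 0.24 ± 0.07 (SE; 95% interval 0.07 to 0.40). It was 0.19 without scrambled replicate 3 and 0.30 without scrambled replicate 1.

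NBR1, a partner of SQSTM1 in aggregate clearance, read 8.29, 8.21 and 8.06 log2 units with scrambled shRNA and 8.35, 8.36 and 8.42 with the knockdown. The gap between the groups was narrow, and the difference was 0.19 ± 0.07 (SE; 95% interval 0.02 to 0.36). Without scrambled replicate 3, its lowest array, it was 0.13. OPTN, optineurin, a receptor for mitochondria and bacteria that the kinase TBK1 phosphorylates, read 8.36, 8.13 and 8.10 against 8.12, 8.21 and 8.24. Its groups overlapped, and the difference of −0.01 ± 0.08 (95% interval −0.20 to 0.18) changed sign in 4 of 16 alternatives: a further quantile normalisation, array weights, and leaving out scrambled replicate 1 or knockdown replicate 1.

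**Figure D2:**
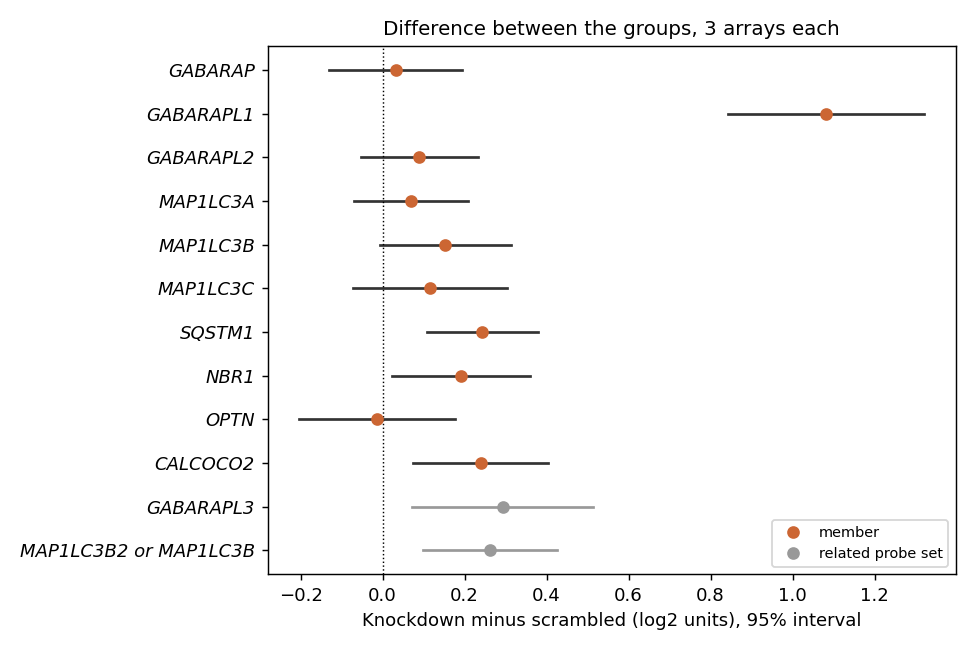
Difference between knockdown and scrambled arrays (log2 units) for the 10 genes and, in grey, for 2 related probe sets; points are differences of means over 3 arrays each and lines are 95% intervals from limma. GABARAPL1 at 1.08 stands clear of the others, which run from −0.01 to 0.29.

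Over the family, 1 of 10 members, GABARAPL1, passed an adjusted p of 0.05 in the fit over all genes and 9 did not pass, where 3.61% of the 18404 genes passed in either direction, 1.92% as higher and 1.69% as lower. The knockdown arrays lay above all scrambled arrays for 7 members and below them for 0, where 11.8% of all genes lay above, 13.1% below and 24.8% either way. GABARAPL1 passed under each of the 16 alternative fits. SQSTM1 passed under 3: with brighter genes only, with a variance prior that follows intensity, and with array weights. MAP1LC3B, NBR1 and CALCOCO2 passed under 1, with array weights, where 3511 genes passed. Because the family was assembled with this contrast known, nothing is read from these counts. The median difference of the members was 0.13 log2 units, and 0.12 without GABARAPL1, against −0.002 over all genes. The median difference was 0.09 in the GABARAP branch, 0.12 in the LC3 branch and 0.22 among the receptors. The medians were set by members other than GABARAPL1: 9 of 10 members differed by less than 0.25 log2 units. With the sign left out, the median difference of these 9 was 0.116, against 0.0852 over all genes.

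The spread within the scrambled group ran through the family. Scrambled replicate 1 was the highest array of its group for 9 of 10 members and scrambled replicate 3 the lowest for 8, where over all genes these shares were 34.8% and 37.3%. In the knockdown group each array was the highest for 2 to 4 members. Leaving out scrambled replicate 3 lowered the difference of 10 members, GABARAP to below 0, and leaving out scrambled replicate 1 raised that of 9. The part of either array in these results was not tested beyond these values.

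**Figure D3:**
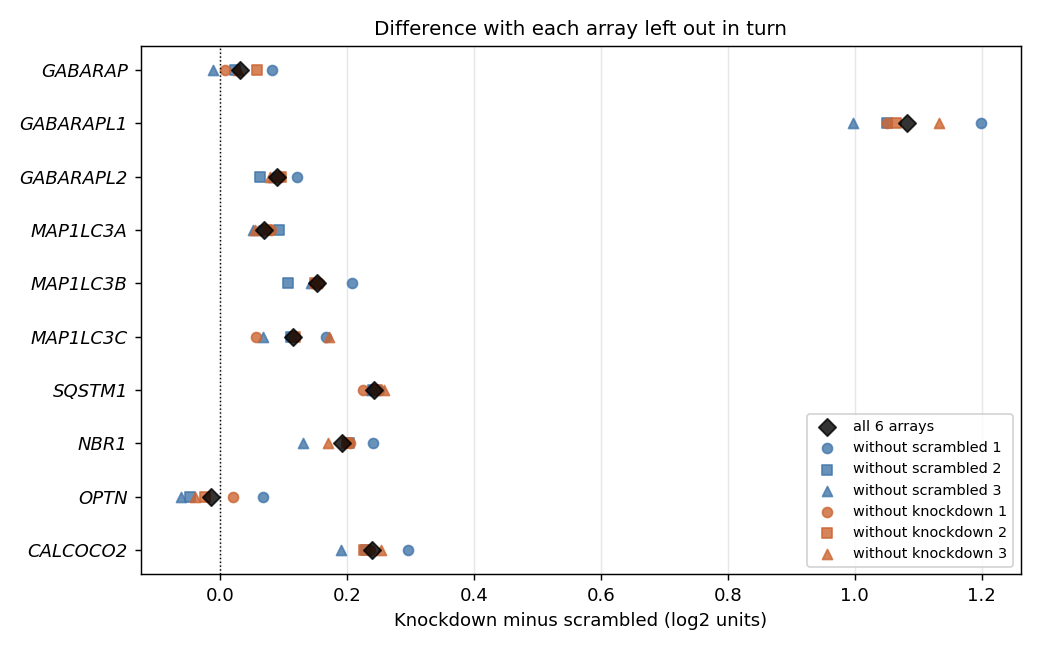
Difference between knockdown and scrambled arrays (log2 units) for each gene with all 6 arrays (black diamonds) and with each array left out in turn (blue for scrambled, orange for knockdown; circles, squares and triangles for replicates 1, 2 and 3). GABARAPL1 stays between 0.998 and 1.20, and GABARAP and OPTN fall on both sides of 0.

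The genes whose levels followed GABARAPL1 most closely over the 6 arrays, among all genes outside the family, were CNR2, SELENOS, HSPA5, CMKLR1 and NCBP2. Pearson's r was 0.999 for CNR2, SELENOS and HSPA5, 0.998 for CMKLR1 and 0.997 for NCBP2. Such values rest largely on the gap between the groups, and in all 5 genes scrambled replicate 1 was also the highest scrambled array. Both this order and the direction of the difference follow largely from the choice by correlation, so nothing is read from them. Their differences were smaller than that of GABARAPL1. HSPA5, the ER chaperone BiP, was higher by 0.31 ± 0.06 log2 units (SE) and SELENOS, a selenoprotein of the ER membrane, by 0.40 ± 0.07. CMKLR1, a chemerin receptor, was higher by 0.76 ± 0.09. CNR2, the cannabinoid receptor of immune cells, read 0.25 ± 0.06 and NCBP2, a cap-binding subunit, 0.20 ± 0.06, and neither passed.

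Outside the family, single genes of autophagy and the lysosome moved in both directions. Of 113 genes on 9 lists drawn from textbook knowledge, 107 were measured, of which 5 rose and 4 fell (limma, adjusted p under 0.05 over all genes), or 8.41% against 3.61% of all genes. The median difference was −0.02 log2 units. These lists were chosen with earlier results of these data known, so nothing is read from that share. A gene that did not pass is not shown to be unchanged. Leaving out single arrays ended most of these calls. Without any 1 of the 3 knockdown arrays or scrambled replicate 2, 2 genes passed, WIPI1 and CTSB. Without scrambled replicate 1 the number was 5, and without scrambled replicate 3 it was 6. ATF4, ATG13, ATG4D and KEAP1 also no longer passed with arrays centred on their median, and 26 genes passed with array weights. WIPI1 and CTSB passed under each of the 16 alternative fits.

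WIPI1 binds phosphatidylinositol 3-phosphate on the forming autophagosome and rose the most. It read 9.35, 9.46 and 9.38 log2 units with scrambled shRNA and 10.12, 10.09 and 9.98 with the knockdown. The groups stood well apart, at a difference of 0.67 ± 0.07 (SE; 1.59-fold; limma, adjusted p = 0.00307). It was the 1 gene that passed of 8 on the list of ATG9, ATG2 and WIPI proteins, where WIPI2 read 0.17 ± 0.06 and WDR45 0.17 ± 0.08, which did not pass. The list's median was 0.13.

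In the ULK1 initiation complex, ATG13, a regulatory subunit, rose by 0.28 ± 0.06 log2 units (SE; limma, adjusted p = 0.0497), at the edge of the threshold, and 4 of 5 did not pass. The scaffold RB1CC1 read 0.12 ± 0.08 and the kinase ULK2 −0.06 ± 0.08. RB1CC1 read 0.05 without knockdown replicate 2, and ULK2 ran from −0.11 without scrambled replicate 3 to 0.005 without scrambled replicate 2. Of 8 genes of the PI3 kinase complex, which makes phosphatidylinositol 3-phosphate, 0 passed. Its lipid kinase PIK3C3 read −0.26 ± 0.08, AMBRA1 0.17 ± 0.07 and PIK3R4 −0.16 ± 0.08, or −0.08 for PIK3R4 without scrambled replicate 3.

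Among 11 genes that cleave ATG8 proteins or join them to lipid, ATG4D fell and 10 did not pass. ATG4D, an ATG4 protease, read 8.85, 8.92 and 9.04 log2 units with scrambled shRNA and 8.61, 8.64 and 8.57 with the knockdown. All knockdown arrays were below all scrambled arrays, at a difference of −0.33 ± 0.07 (SE; limma, adjusted p = 0.0410). ATG12 read 0.17 ± 0.06 and ATG7, which activates ATG8 proteins, −0.21 ± 0.12, and neither passed. ATG7 read −0.08 without knockdown replicate 1 and −0.12 without scrambled replicate 3.

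Of 10 genes of autophagosome fusion, 0 passed: the SNARE proteins VAMP8, SNAP29 and YKT6 read −0.27 ± 0.07, −0.24 ± 0.07 and 0.19 ± 0.09 log2 units (SE), with YKT6 at 0.11 without scrambled replicate 1. Of 21 other measured receptors and adaptors, 0 passed. NCOA4, the ferritin receptor, read −0.24 ± 0.07, TAX1BP1, a relative of CALCOCO2, 0.22 ± 0.07, and RTN3, an ER receptor, 0.16 ± 0.07.

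Among the partners that act on the receptors, KEAP1 passed as lower. KEAP1, the ubiquitin ligase adaptor that SQSTM1 sequesters, read 9.17, 9.09 and 9.35 log2 units with scrambled shRNA and 8.84, 8.74 and 8.90 with the knockdown. The groups did not overlap, and KEAP1 fell by 0.38 ± 0.08 (SE; limma, adjusted p = 0.0455). It was 1 of 6 measured partners that passed. TBK1, the kinase of OPTN and SQSTM1, read −0.18 ± 0.07 and its relative IKBKE −0.28 ± 0.09, and neither passed.

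Of 11 transcription factors that act on autophagy genes, DDIT3 and ATF4 rose and 9 did not pass. DDIT3, the stress factor CHOP, rose by 0.55 ± 0.09 log2 units (SE; limma, adjusted p = 0.0178). ATF4, the factor of the amino acid response, read 10.09, 10.10 and 10.17 with scrambled shRNA and 10.45, 10.44 and 10.42 with the knockdown. The groups did not overlap, at a difference of 0.31 ± 0.06 (limma, adjusted p = 0.0291). With the mean taken over single-symbol probe sets of the same gene, ATF4 read 0.23 and did not pass. TFE3 read 0.17 ± 0.09, or 0.10 without scrambled replicate 1, and TFEB, its relative that drives lysosomal genes, read 0.04 ± 0.06. TFEB was singled out after its value had been seen.

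In the lysosome list, CTSB rose, SCARB2 and ATP6V1A fell, and 24 of 27 did not pass. CTSB, the protease cathepsin B, read 7.30, 7.36 and 7.11 log2 units with scrambled shRNA and 7.90, 7.84 and 7.83 with the knockdown. All knockdown arrays were higher, at a difference of 0.60 ± 0.08 (SE; 1.52-fold; limma, adjusted p = 0.00692). SCARB2, the membrane protein LIMP-2, fell by 0.41 ± 0.07 (adjusted p = 0.0178), and ATP6V1A, the catalytic subunit of the proton pump, by 0.31 ± 0.06 (adjusted p = 0.0328), in the same limma fit. The list's median was −0.04.

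**Figure D4:**
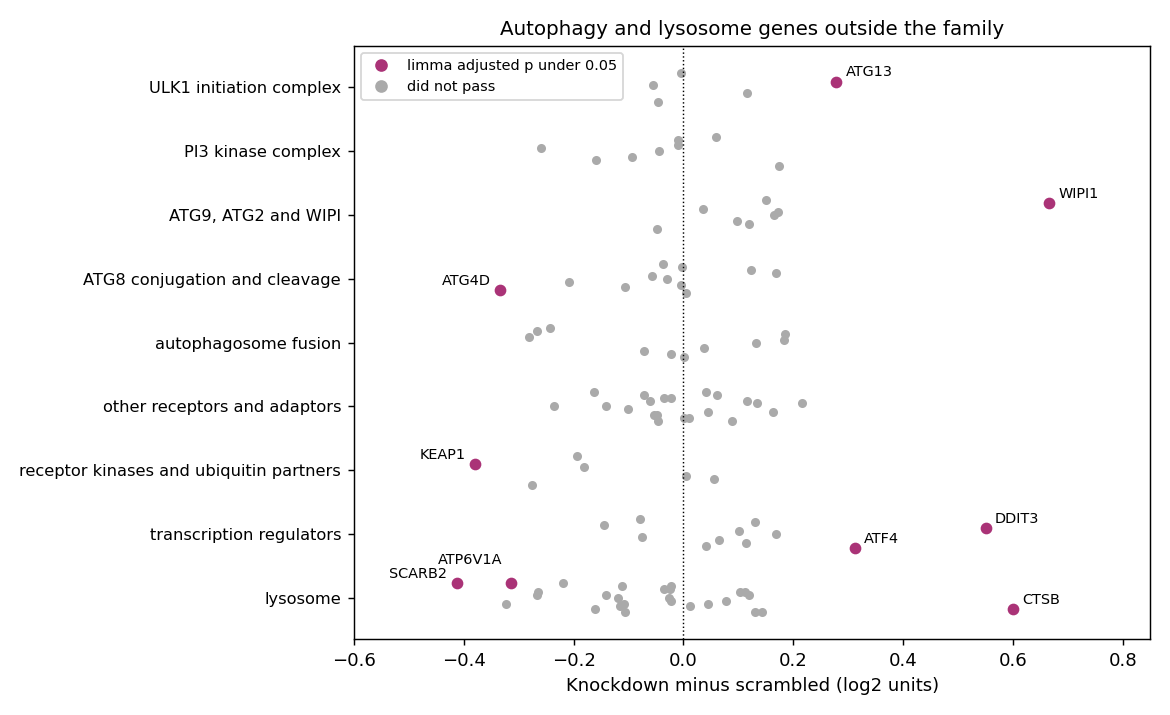
Difference between knockdown and scrambled arrays (log2 units, horizontal axis) for 107 genes on 9 autophagy and lysosome lists (rows; the vertical scatter within a row carries no value); purple points passed limma's adjusted p of 0.05 and are named, grey points did not. WIPI1 and CTSB lie furthest to the right with DDIT3, and 4 named genes lie left of 0.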

How the data were processed

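Total RNA was labelled with biotin using an Affymetrix whole-transcript kit, per the labels. The deposited values are log2 probe set values that the authors made with RMA (background correction, quantile normalisation and summarisation of probes), per the submitters' processing notes; its version and the genome build: not given in the sources used here. RMA shrinks the differences of dim probe sets, and a shift common to most genes would not be seen after quantile normalisation. Depth does not apply to arrays; their number limits the precision.

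Of the probe sets, named from the annotation of the array platform, 19158 of 32321 had 1 symbol, 1388 had several and 11775 stay unnamed. The single-symbol probe set with the highest mean over the 6 arrays stood for each of 18404 genes. The test was limma's (version 3.58.1, R 4.3.3; lmFit, then eBayes; two-sided, without covariates) at a Benjamini-Hochberg adjusted p of 0.05 over all genes. Dim probe sets were kept. The fit was tested on simulated data. The members and lists were chosen with earlier results of these data known. Named genes are UGT2B17, the members, up to 3 genes of each of the 9 lists with the smallest unadjusted p, and the 5 genes most correlated with GABARAPL1. The other genes given with values (GABARAPL3, TFEB, KLRF1, KRT18, KRT8, EPCAM and the remaining proton pump genes) were named after their values had been seen. Of the 9 lists, 6 genes were not analysed here for want of a single-symbol probe set. The 16 alternative fits changed normalisation, centring, brightness filter, variance prior, array weights, probe sets, replicate block or arrays left out.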

Additional observations from a re-analysis of the deposited data

How the results depend on the processing

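The count of genes called was 665. It became 3511 with array weights, which gave scrambled replicate 2 a weight of 6.12 and scrambled replicate 3 of 0.25, 139 with adjustment over all deposited probe sets, 367 with the replicate number as a block, and 1207 at an adjusted p under 0.1. With 1 array left out it ran from 152 to 759. The 9 autophagy and lysosome genes called became 5 with arrays centred on their median (ATF4, ATG13, ATG4D and KEAP1 lost), 26 with array weights, 2 over all deposited probe sets, 4 with the replicate block (DDIT3, SCARB2, WIPI1 and CTSB), and 2 to 6 with 1 array left out. The remaining alternatives kept both counts within 1.5 times, and the cause of these moves was not tested. Same-numbered arrays did not deviate together over all genes (correlations of −0.0539, −0.0666 and −0.0334). The labels do not say how the replicates were made, so whether the numbers pair the samples is not known. The difference of GABARAPL1 lay between 0.998 and 1.20 log2 units over the 16 alternative fits. Neither scaling moved the median of all genes by over 0.1 log2 units.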

Other observations

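The lysosomal proton pump, which acidifies the compartment where autophagosomes end, had 6 genes on the lysosome list, set side by side after their values had been seen. The soluble subunits ATP6V1A, ATP6V1B2 and ATP6V1H read −0.31, −0.27 and −0.12 log2 units, the membrane subunits ATP6V0D1 and ATP6V0A1 −0.32 and 0.11, and the accessory protein ATP6AP1 −0.11. Of these, ATP6V1A passed limma's adjusted p over all genes and the others did not. ATP6V0D1 read 10.04, 10.20 and 10.58 on scrambled arrays 1 to 3 and 9.90, 9.99 and 9.97 on knockdown arrays 1 to 3, so that scrambled replicate 3, the lowest scrambled array for most ATG8 and receptor genes, was the highest here.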
